A study of Mus musculus with 41 samples.

Results

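Contact with feeder cells that carried the Notch ligand Dll4 was compared with contact with feeder cells that carried GFP, 6 h after MEEC had been laid over them. The libraries were taken by their labels: the 3 libraries of OP9-Dll4 co-culture at 6 h against the 3 libraries of OP9-GFP co-culture at 6 h, paired by library number, over all 13886 genes listed for that experiment. These are 6 of the 41 libraries of the series. MEEC is a mouse embryonic endocardial cell line of wild-type genotype, and OP9 is a mouse bone marrow stromal line widely used to present Notch ligands. The OP9 cells stood at 90% confluence and MEEC at 50% confluency in the 6 h co-cultures, while MEEC stood at 25% in the 24 h co-cultures that are looked up further on. No inhibitor or vehicle was given in either group, so the ligand of the feeder is the labelled difference. Any other difference between OP9-Dll4 and OP9-GFP feeders cannot be told apart from the ligand. The study also covered OP9-Jag1 feeders at both times, the gamma-secretase inhibitor RO4929097 over OP9-GFP, and recombinant ligands without feeders. No source used here states that RNA of MEEC and of OP9 was separated, and fewer cells of a type cannot be told apart from less RNA per cell. Whether each library is a culture of its own is not stated, and the p-values then reflect only library to library spread, which may be technical.

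Notch is a receptor that is cut when a ligand on a neighbouring cell pulls on it. The last cut, by gamma-secretase, frees an intracellular fragment that enters the nucleus, joins the DNA-binding protein RBPJ and turns on target genes such as those of the Hes and Hey families. In the endocardium, the lining of the embryonic heart, Dll4 and Notch1 act in the endothelium next to the forming ventricle wall and in the valve-forming regions. Hes and Hey proteins are repressors, and Nrarp feeds back on the nuclear complex.

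The depth of the 6 libraries was 14.5 to 16.3 M reads. A gene with no read could have had up to 3, a signal of 0.209 to 0.235. Libraries with number 2 stood apart in all 3 feeder groups at 6 h: against libraries 1 and 3 of their own group their chi-square per gene was 12.8 to 32.3, against 5.48 to 7.18 between libraries 1 and 3. Same-numbered OP9-Dll4 and OP9-GFP libraries deviated together from their group means (r over genes 0.507, 0.683 and 0.270), and the number was kept in the fit as a block. Libraries of different number did so too in part: OP9-Dll4 library 3 with OP9-GFP library 1 gave r = 0.295, above its value with its own number, OP9-Dll4 library 1 with OP9-GFP library 3 gave 0.193, and the 4 pairs that set number 2 against another number gave -0.338 to -0.613. The calls depend on that block: 162 genes were called with it and 1 without it. Library 3 of OP9-Dll4 at 6 h held 86 reads of Myh7, a cardiac myosin gene, 40 of Actc1 and 16 of Hbb-bs, a beta-globin gene, where the other 5 libraries held 0 to 2, 0 and 0. None of these 3 genes was called. Of the endothelial markers looked up, Tek, Cd34, Kdr, Gata4, Nfatc1 and Npr3 were listed, at mean signals in OP9-GFP of 14.99, 46.3, 10.4, 50.3, 11.4 and 2.37, and the markers Pecam1, Cdh5, Emcn, Tie1 and Erg were not analysed here. None of the listed markers of cardiomyocytes (13), skeletal and smooth muscle (5), leukocytes (3), erythroid cells (1) or OP9 stroma (18) was called, and the summed signal of the OP9 markers was 1308 to 2083 over OP9-GFP and 1340 to 1879 over OP9-Dll4. Single OP9 markers, named after their values were seen, were called lower in other limma fits: Peg3 with only 9 or 6 libraries in the fit, with a pseudocount of 4 or with library weights, and Spp1 and Cxcl12 without OP9-GFP library 1 or without number 1 of all 6 h groups. Cxcl12, a stromal chemokine, had 177.81, 504.45 and 258.24 over OP9-GFP and 178.53, 332 and 187.11 over OP9-Dll4 (log2 change -0.35 ± 0.11, adjusted p 0.143, limma; -0.56 and 0.0028 without OP9-GFP library 1). The part of feeder RNA in the other results was not tested. Dll4 itself was not analysed here, so the transcript that defines the feeder does not check the labels.

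Few genes were called after 6 h on Dll4 feeders, and most of the called changes were small. Of 13886 genes, 162 were called at an adjusted p under 0.05 by limma (1.17% of all genes), 110 of them higher (0.792%) and 52 lower (0.374%) over OP9-Dll4. In the same fit 1551 genes had an unadjusted p under 0.05, and a gene not called is not shown to be unchanged. Changes are on the log2(signal + 1) scale, where 1 is a doubling for well expressed genes. The median size of a called change was 0.34, and 115 of the 162 were under 0.5. The 8 that exceeded 1 in size were CT010467.1, Gm26549, Nrarp and Syn3 upward and Gm10232, Gm10273, Gm4149 and Cd63-ps downward. The median over all genes was -0.01. All 162 called genes moved the same way in all 3 numbered pairs, which the block favours, and in 87 of them the 3 OP9-Dll4 values did not overlap the 3 OP9-GFP values. Among all genes, 6.64% were separated in this way. Leaving out any of the 6 libraries in turn left 39 of the 162 called in every fit, 32 higher and 7 lower.

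**Figure D1:**
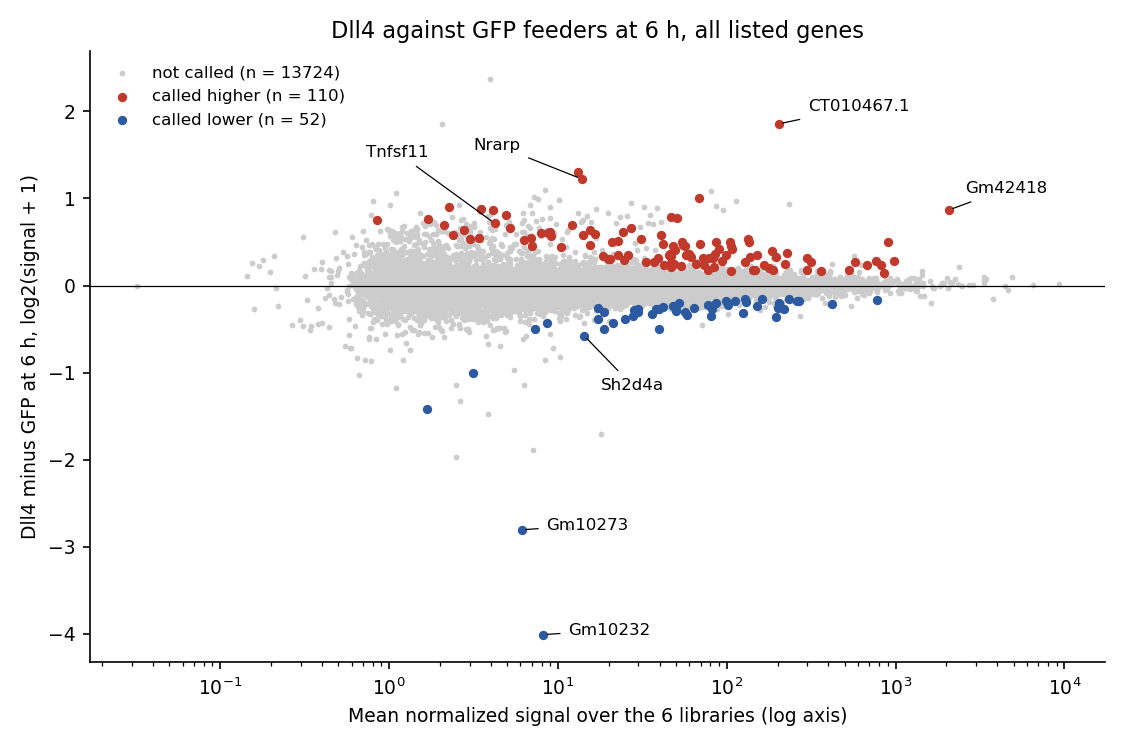
Each point is 1 of 13886 genes, with its mean normalized signal over the 6 libraries of 6 h (log axis) against its log2 change, OP9-Dll4 minus OP9-GFP. The 110 genes called higher (red) and the 52 called lower (blue) lie mostly within 1 log2 unit of 0, with CT010467.1, Nrarp, Gm10273 and Gm10232 beyond it.

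Notch target genes were among those that rose. Of 7 listed targets, Nrarp, Hes1, Hey2 and Hey1 were called higher and none lower, and the median change of the 7 was 0.45. Over all genes 0.792% were called higher and 0.374% lower. This and the other gene lists were chosen with earlier results of these data known. A count within a list is thus a description and not a test. Without the block none of the 7 passed, and with any 1 library left out 2 or 3 did. Nrarp, a small protein that binds the Notch nuclear complex and limits it, had a signal of 8.89, 5.67 and 8.16 in the OP9-GFP libraries and 30.2, 11.7 and 18.4 over OP9-Dll4. Every OP9-Dll4 value lay above every OP9-GFP value, and library 2 was the lowest of each group. The mean rose from 7.57 ± 1.69 to 20.1 ± 9.36 (SD, n = 3), a log2 change of 1.22 ± 0.12 (SE) with an adjusted p of 4.26e-05 by limma.

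Hes1, the repressor most often used to read Notch activity, had a signal of 41.1, 35.9 and 45.2 over OP9-GFP and 58.2, 49.7 and 60.2 over OP9-Dll4. The groups did not overlap, and the difference was alike in the 3 pairs. Its log2 change was 0.45 ± 0.06, with an adjusted p of 0.000416 (limma), and it was called in all 6 fits that left out a library, as Nrarp was. Hey2, a repressor of the same family, had 9.52, 9.54 and 7.09 over OP9-GFP and 13.8, 11.1 and 11.6 over OP9-Dll4 (log2 change 0.44 ± 0.08, adjusted p 0.00819). Its groups did not overlap either, but the call was lost without OP9-Dll4 library 1 (adjusted p 0.0579), OP9-Dll4 library 3 (0.0794) or OP9-GFP library 3 (0.0976), with only the 6 libraries compared in the fit (0.0932) and by DESeq2 (0.0953).

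Hey1 was low, at 1.88, 3.01 and 2.92 over OP9-GFP and 3.96, 4.39 and 4.29 over OP9-Dll4. The groups did not overlap, yet the call was close to the threshold (log2 change 0.55 ± 0.13, adjusted p 0.0460) and was lost with each library left out (adjusted p 0.0511 to 0.244) and by edgeR (0.0645) and DESeq2 (0.330) on recovered reads. Heyl, lower still, had 0.159, 0.602 and 0.369 over OP9-GFP and 0.864, 1.04 and 0.765 over OP9-Dll4. Those values did not overlap, but the change of 0.47 ± 0.18 did not pass (adjusted p 0.307). Lfng, a sugar transferase that modifies Notch, had a change of -0.26 ± 0.08 (adjusted p 0.162), and Notch3 one of -0.15 ± 0.18 (adjusted p 0.832).

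**Figure D2:**
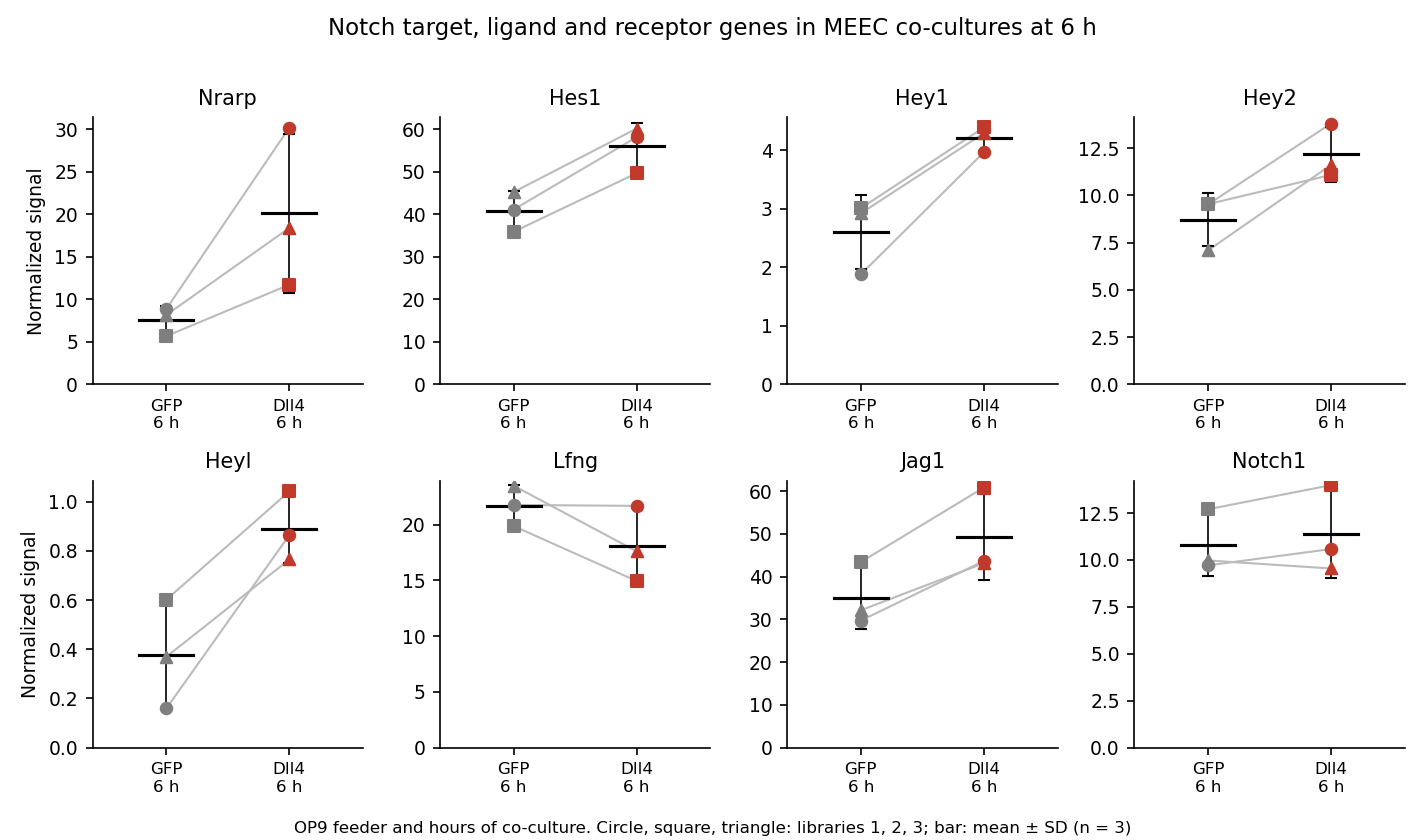
Normalized signal of 8 Notch pathway genes in each library at 6 h over OP9-GFP (grey) and OP9-Dll4 (red), with grey lines joining same-numbered libraries and black bars giving the mean ± SD (n = 3). Nrarp, Hes1, Hey1, Hey2 and Heyl lie higher over OP9-Dll4 in every pair, Jag1 also rises in every pair while its groups overlap slightly (29.7 to 43.4 against 43.1 to 60.9), and Lfng and Notch1 were not called.

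Of the other parts of the pathway, 1 ligand gene was called, where 0.792% of all genes were called higher and 0.374% lower. Jag1, which encodes a Notch ligand, had a signal of 29.7, 43.4 and 32.1 over OP9-GFP and 43.7, 60.9 and 43.1 over OP9-Dll4. It rose in every pair by a similar step (log2 change 0.48 ± 0.07, adjusted p 0.000794, limma) and was the 1 gene called among 12 listed ligands and modifiers, whose median change was -0.03. Jag2, the other canonical ligand listed, went from 39.9 ± 17.4 to 36.8 ± 14.2 (log2 change -0.09 ± 0.08, adjusted p 0.720). Neither Notch1 nor Notch2, the receptors listed beside Notch3, was called: Notch1 had 9.71, 12.7 and 9.97 against 10.6, 14.0 and 9.55, and Notch2 147 ± 15.7 against 143 ± 19.7. None of 29 genes of receptor cleavage and of the nuclear complex was called, with a median change of -0.02. Nor did Mib1 pass, a ubiquitin ligase that primes ligands for endocytosis (log2 change -0.08 ± 0.03, adjusted p 0.391).

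Windows of 250 bases before the gene start were read from RefSeq on build GRCm38.p6 for 67 of the genes called higher, 31 of those called lower and 9996 genes of the experiment. They were searched on both strands for TGGGAA, the core that RBPJ is known to bind, which reads as TTCCCA on the other strand. It was present in windows of 23 of the 67 higher genes (34.3%), of 5 of the 31 lower genes (16.1%) and of 23.6% of the 9996 genes, counting a gene when any of its windows held it. Whether these shares differ was not tested. Of the genes on which the Notch result turns, the windows of Hey2, Nrarp and Jag1 are printed. Each runs 5′ to 3′ on the strand of the gene, with any match in capitals. No window was available for Hes1 and Hey1. The window of Lfng, a listed target that was not called, is not printed and holds 2 matches, 135 and 108 bases before the start. The Hey2 window (chr10:30842784-30843033, minus strand) holds 1 match, whose first base lies 207 bases before the start. No match was found in the windows of Nrarp (chr2:25180508-25180757, plus strand) and Jag1 (chr2:137116521-137116770, minus strand), which says only that these letters are not in these bases.
Hey2: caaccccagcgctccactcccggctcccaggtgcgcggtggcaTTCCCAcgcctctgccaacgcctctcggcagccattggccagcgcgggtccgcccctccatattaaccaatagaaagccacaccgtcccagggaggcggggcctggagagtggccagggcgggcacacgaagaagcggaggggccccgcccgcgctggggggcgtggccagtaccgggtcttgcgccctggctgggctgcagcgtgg
Nrarp: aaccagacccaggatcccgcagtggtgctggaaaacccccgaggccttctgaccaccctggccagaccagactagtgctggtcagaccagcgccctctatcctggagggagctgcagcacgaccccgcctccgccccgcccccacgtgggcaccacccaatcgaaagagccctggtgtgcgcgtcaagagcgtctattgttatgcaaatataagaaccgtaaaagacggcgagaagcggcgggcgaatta
Jag1: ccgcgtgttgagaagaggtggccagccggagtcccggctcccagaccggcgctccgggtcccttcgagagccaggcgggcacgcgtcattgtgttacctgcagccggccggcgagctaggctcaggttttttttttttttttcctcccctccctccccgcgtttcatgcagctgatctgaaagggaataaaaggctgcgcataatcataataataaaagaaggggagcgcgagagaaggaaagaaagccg

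Secreted signals changed in both directions. Of 38 listed signals that endocardium and endothelium send, 4 were called higher and 2 lower, and the median of the list was 0.01. Over all genes 0.792% were called higher and 0.374% lower. Il33, an alarmin cytokine held in the nucleus of endothelial cells, had a signal of 40.5, 28.1 and 32.7 over OP9-GFP and 78.1, 44.4 and 57.0 over OP9-Dll4. All 3 OP9-Dll4 values exceeded all OP9-GFP values, and the pairs kept their order (log2 change 0.79 ± 0.08, adjusted p 4.45e-05, limma). Aggf1, an angiogenic factor, went from 89.4, 89.6 and 94.3 to 119, 119 and 131 (log2 change 0.42 ± 0.04, adjusted p 4.26e-05). Its values were close together within each group and far apart between them. Tgfb3 and Tgfb2, ligands of the TGF-beta family that act in valve formation, rose by smaller steps of 0.31 ± 0.06 and 0.25 ± 0.05 (adjusted p 0.00819 and 0.0109).

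Edn1, the vasoconstrictor endothelin 1, fell, from 21.5, 25.4 and 19.2 to 13.6, 18.3 and 14.1. The groups did not overlap (log2 change -0.50 ± 0.07, adjusted p 0.00144, limma). Fgf5, a fibroblast growth factor, fell from 26.5, 22.7 and 24.4 to 20.7, 15.5 and 17.996 (log2 change -0.43 ± 0.07, adjusted p 0.00299). Il33, Aggf1, Edn1 and Fgf5 were called in each of the 6 fits without a library, while Tgfb3 was called in 4 of them and Tgfb2 in 2. Outside the list, Tnfsf11, the cytokine RANKL, rose from 2.83, 3.20 and 2.85 to 5.40, 5.21 and 5.89. Its groups were far apart for so low a signal (log2 change 0.71 ± 0.12, adjusted p 0.00520).

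The matrix genes that were called all rose. Of 34 elastic fibre and matrix genes 3 were called, all higher, and of 30 collagens and laminins 4, all higher. The medians of the lists were 0.03 and 0.06. Over all genes 0.792% were called higher and 0.374% lower. Tuft1, which encodes tuftelin, a protein first found in enamel, was the only gene called both with and without the block. Its signal was 73.5, 72.9 and 67.7 over OP9-GFP and 107, 95.7 and 103 over OP9-Dll4. The spread within a group was small beside the step between them (log2 change 0.51 ± 0.05, adjusted p 4.26e-05 with the block and 0.0344 without it, limma).

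Col18a1, the basement membrane collagen whose fragment is endostatin, had 15.1, 26.6 and 20.1 over OP9-GFP and 24.9, 45.4 and 29.97 over OP9-Dll4. Library 2 was highest in each group, so the groups overlapped while each pair rose alike (log2 change 0.66 ± 0.07, adjusted p 6.24e-05, limma). Emilin2, an elastic fibre glycoprotein, varied much alike by number, with 8.63, 15.3 and 11.7 against 15.4, 25.4 and 16.3, groups that just failed to overlap (log2 change 0.64 ± 0.08, adjusted p 0.000223). Col15a1, Col5a3, Col6a1 and Eln, the gene of elastin, were called at 0.67 ± 0.13, 0.53 ± 0.09, 0.28 ± 0.06 and 0.54 ± 0.12. These 4 were higher in the libraries with number 2 of both groups than in the others, and all 4 lost the call without OP9-Dll4 library 1, without OP9-Dll4 library 2 and without OP9-GFP library 1. Of the collagens and laminins, Col18a1 alone (1 of 30) was called in those 3 fits. Adam12, a membrane metalloproteinase, was the 1 gene called of 29 metalloproteinases and inhibitors (log2 change 0.34 ± 0.08, adjusted p 0.0473, limma), where 0.792% of all genes were called higher. It was called in 0 of the 6 fits without a library.

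A few genes of the cell surface, the cytoskeleton and epithelial identity were called. The keratins Krt18, Krt14 and Krt8, intermediate filament genes that were among 9 listed neural and epithelial markers, were called higher; they were high in both groups, with Krt8 at 764.8, 601.5 and 883.8 over OP9-GFP and 902, 742 and 1004 over OP9-Dll4. The groups of Krt8 overlapped, and each library 2 was the lowest (log2 change 0.24 ± 0.04, adjusted p 0.00563, limma). The summed signal of those 9 markers was 2048 to 2841 over OP9-GFP and 2431 to 3269 over OP9-Dll4, and its part in the other results was not tested. Of 36 genes listed under adhesion and junctions, Crybg1, Dsg2 and Itga7 were called higher (log2 changes 0.33 ± 0.05, 0.58 ± 0.11 and 0.33 ± 0.07). Itgb8 was called lower (-0.31 ± 0.06). Crybg1 was in the list as chosen but is not an established adhesion or junction gene. Over all genes 0.792% were called higher and 0.374% lower. Both lists of this paragraph were chosen with earlier results of these data known, so their counts are not a test. Of the 6 fits without a library, Crybg1 was called in 6, Itgb8 in 2 and Dsg2 and Itga7 in 1 each. Ank1, an ankyrin that ties membrane proteins to spectrin, went from 37.7, 60.4 and 40.1 to 54.9, 80.9 and 55.1 (log2 change 0.47 ± 0.05, adjusted p 0.000176). Kif26b, an atypical kinesin, and Mpp2, a membrane scaffold, rose by 0.41 ± 0.05 and 0.36 ± 0.04.

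Of 20 endothelial and endocardial identity genes, 2 were called higher and 1 lower, with a median of -0.01. Over all genes 0.792% were called higher and 0.374% lower. Thbd, the anticoagulant receptor thrombomodulin, went from 227, 318 and 253 to 298, 386 and 304 (log2 change 0.31 ± 0.04, adjusted p 0.000894, limma). Flt1, a receptor for VEGF, had 2.58, 12.3 and 5.21 against 4.80, 19.5 and 7.75. Its libraries differed more by number than by feeder, and the fitted change was 0.60 ± 0.11 (adjusted p 0.00709). Klf4, a flow-induced transcription factor, fell from 89.7 ± 7.90 to 74.4 ± 4.22 (log2 change -0.26 ± 0.06, adjusted p 0.0252), a call that held in 1 of the 6 fits without a library.

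Few genes of growth control were called. The counts of this paragraph stand beside 0.792% of all genes called higher and 0.374% called lower. Ccnd2, a G1 cyclin, was the 1 gene called among 24 G1 cyclins and CDK inhibitors, with 246.5, 149.7 and 193 over OP9-GFP and 329, 182 and 260 over OP9-Dll4. The groups overlapped, and each pair rose (log2 change 0.37 ± 0.04, adjusted p 5.12e-05, limma). None of 40 genes of DNA replication and mitosis was called, and their median change was 0.02. Among 19 genes of FGF and ERK feedback, the phosphatases Dusp6 and Dusp5 rose by 0.18 ± 0.03 and 0.23 ± 0.05 and Dusp4 fell by 0.16 on the log2 scale. They were called in 2, 0 and 1 of the 6 fits without a library. Trib2, a pseudokinase, and Il1rap, a subunit of the receptors for IL-1 and for IL-33, rose by 0.50 ± 0.06 and 0.46 ± 0.05, and both were called in all 6 fits without a library. No listed gene was called among 25 of the epithelial to mesenchymal transition, 32 of the TGF-beta and BMP response, 21 of Wnt signalling, 28 of actin, YAP and SRF targets, 38 of the respiratory chain, 31 of chromatin and transcription cofactors and 34 of the amino acid stress and unfolded protein response. Genes outside these lists, picked after their values were seen, were called in both directions. Uqcrh and Ndufa12 of the respiratory chain were higher (0.18 and 0.27). So were Fzd8, Sfrp4 and Ccn4 of Wnt signalling (0.51, 0.37 and 0.17). The transcription cofactors Runx1t1, Cited2, Eid1 and Tbl1x were lower (-0.50, -0.34, -0.25 and -0.18). Of 38 listed interferon-stimulated genes, Isg20 alone was called (0.30 ± 0.07, adjusted p 0.0473, limma), in 0 of the 6 fits without a library. A positive change was found in 7 of the 38, and the median was -0.14. Outside that list, the interferon-inducible Irgm1 was called lower (-0.50 ± 0.09, adjusted p 0.00588, limma), in 4 of the 6 fits. Of 42 ribosomal protein genes Rps7, Rps23 and Rpl27 were called higher, genes whose many processed copies make the assignment of reads uncertain. A positive change was seen in 41 of the 42, with a median of 0.06. Other lists held 1 or 2 called genes each: Cebpb of 27 AP-1 and immediate early factors (0.35), Ccl2 of 31 chemokine, cytokine and NF-kB genes (0.35), Sema6d and Kif26b of 33 guidance genes (0.25 and 0.41), Fas and Phlda3 of 26 p53 targets (0.34 and 0.26), Flt1 and Irs1 of 30 growth factor receptors and adaptors (0.60 and -0.35) and Ndrg1 of 32 genes of hypoxia and glycolysis (-0.22). Of these, Irs1 and Kif26b were called in all 6 fits without a library, Sema6d and Flt1 in 4 and Ccl2 in 3. Phlda3 was called in 2, Fas and Cebpb in 1 and Ndrg1 in 0. Kif26b was listed under guidance but is a kinesin, not a guidance ligand or receptor.

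The 52 lower genes were led in size, among those with a mean signal of at least 4 and leaving aside Gm10232 and Gm10273, by Sh2d4a, an SH2 domain adaptor. Its signal was 16.8, 16.8 and 18.2 over OP9-GFP and 10.9, 12.7 and 10.2 over OP9-Dll4. The groups were well apart, with a log2 change of -0.58 ± 0.09 and an adjusted p of 0.00219 (limma). Runx1t1, a corepressor, fell from 8.76 ± 1.51 to 5.88 ± 0.89 (-0.50 ± 0.10), and Irgm1, an interferon-inducible GTPase, from 46.8 ± 5.35 to 32.7 ± 2.42 (-0.50 ± 0.09). Irs1, the adaptor of the insulin and IGF1 receptors, went from 95.3, 89.8 and 85.2 to 73.7, 73.2 and 65.4. Each of its pairs fell by a like step (log2 change -0.35 ± 0.04, adjusted p 0.000223). Gcnt1, a glycosyltransferase that branches O-linked sugars, went from 200.1, 231 and 227 to 148, 181 and 186 (log2 change -0.36 ± 0.05, adjusted p 0.000649). Sh2d4a, Irs1 and Gcnt1 were called in all 6 fits without a library, Runx1t1 in 1 and Irgm1 in 4. Hmgcs1, of sterol synthesis, was the 1 gene called among 34 of cholesterol and fatty acid synthesis (log2 change -0.22 ± 0.04, adjusted p 0.00716, limma). Of those 34, 7 had a positive change, and the median was -0.03. Over all genes 0.374% were called lower.

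Transcripts that are not protein coding were also among the called genes, 14 higher (0.908%) and 3 lower (0.195%) of 1542 listed, shares near those over all genes (0.792% and 0.374%). CT010467.1, annotated as ribosomal RNA on chromosome 17, had a signal of 140, 34.0 and 122.5 over OP9-GFP and 276, 293 and 354 over OP9-Dll4. The groups were apart, with library 2 of OP9-GFP the lowest of all (log2 change 1.86 ± 0.31, adjusted p 0.00470, limma). Without that library the change was 1.22, and without OP9-Dll4 library 2 the call was lost (adjusted p 0.0665). Gm42418, a long non-coding gene annotated on the opposite strand of the same stretch (CT010467.1 at 39846353 to 39848827, Gm42418 at 39846958 to 39848788, GRCm38), had 1471, 1388 and 1532 against 2769, 2561 and 2683. Reads of the 2 genes cannot be told apart where counting does not use the strand, which was not given in the sources used here. Within each group Gm42418 varied little (log2 change 0.87 ± 0.10, adjusted p 0.000148). Rn7sk, the small nuclear RNA that holds the elongation factor P-TEFb inactive, had 2.64, 2.95 and 2.18 against 3.79, 7.42 and 5.82 (0.86 ± 0.17, adjusted p 0.0163). Lars2, which encodes the mitochondrial leucyl-tRNA synthetase and was picked after its values were seen, had 601, 997 and 667 against 951, 1233 and 972 (0.50 ± 0.07, adjusted p 0.000894). The summed signal of 3 genes of the chromosome 17 repeat, Gm42418, Gm26917 and AY036118, was 1527 to 1653 in the OP9-GFP libraries and 2767 to 2905 in the OP9-Dll4 libraries; the part of ribosomal RNA carry-over in these and in the other results was not tested.

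**Figure D3:**
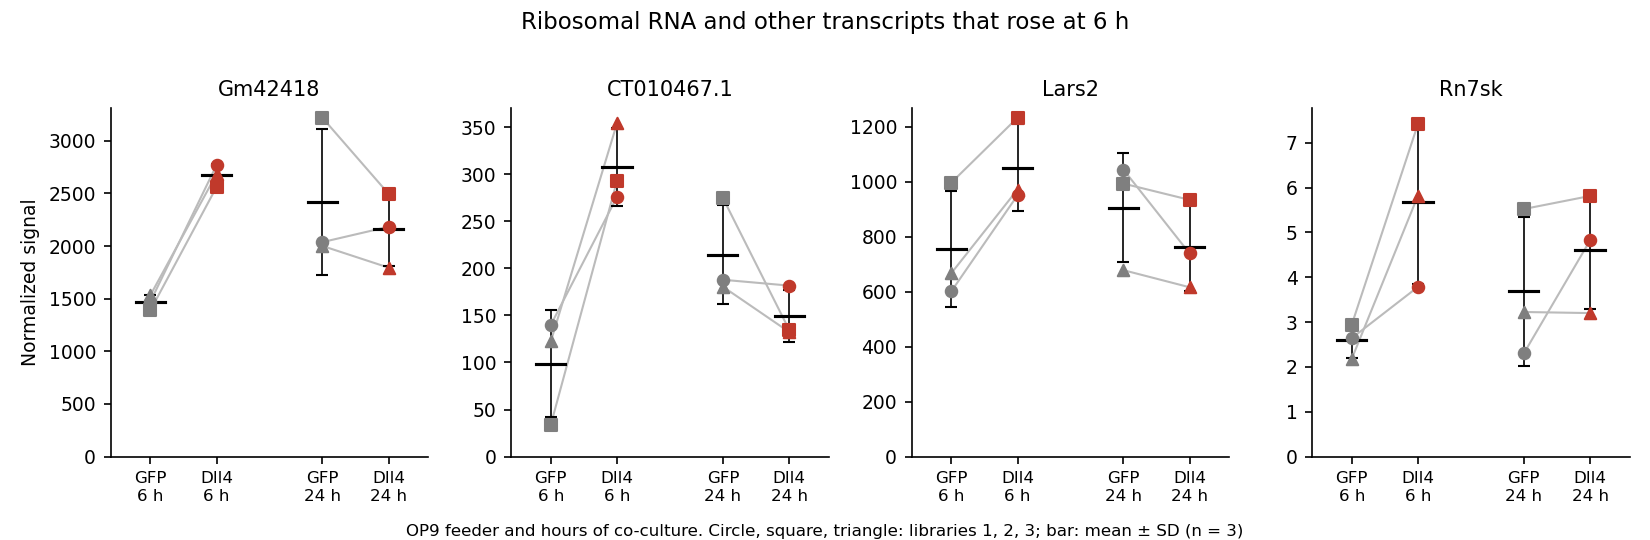
Normalized signal of Gm42418, CT010467.1, Lars2 and Rn7sk in each library over OP9-GFP (grey) and OP9-Dll4 (red) at 6 h and 24 h, with lines joining same-numbered libraries and bars giving the mean ± SD (n = 3). At 6 h all pairs rise, while at 24 h the values of the feeders overlap, for Gm42418 at 2000.6 to 3217.5 against 1794.5 to 2495.4.

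The lowest log2 changes were those of Gm10232 and Gm10273. Gm10232, a processed pseudogene, held 277, 261 and 219 reads in the OP9-GFP libraries and 0, 0 and 2 in the OP9-Dll4 libraries. Gm10273 held 150, 163 and 192 reads against 60, 0 and 0. Both were called lower, each in 2 of the 6 fits without a library. A pseudogene can share reads with the gene it was copied from, so the values of Gm10232, Gm4149 and Cd63-ps are uncertain; sharing of reads was not tested.

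The same feeders were compared again at 24 h, in libraries other than the 6, where 808 genes (5.82%) were called. Libraries of both times entered the same fit and shared an estimate of spread per gene. Calls at 6 h and at 24 h are therefore not independent. The log2 changes at 24 h come from the 24 h libraries alone. Of the 110 genes higher at 6 h, 98 were also higher at 24 h and 79 were called higher, with none called lower; of all genes, 50.8% had a positive change and 2.82% were called higher. Of the 52 lower genes, 51 were lower at 24 h and 39 were called lower, with none called higher, against 49.2% and 3.00% of all genes. The change was more positive at 24 h than at 6 h for 62 of the 110 higher genes (52.98% of all genes) and more negative for 29 of the 52 lower genes (47.02%), shares near those over all genes. Il33 rose from 30.4, 18.6 and 51.8 to 112, 69.0 and 170 at 24 h, a log2 change of 1.79 ± 0.08. Its effect at 24 h exceeded that at 6 h by 1.01 ± 0.11 (adjusted p 0.000355, interaction in limma). Of the 14 genes not coding for protein that were higher at 6 h, 6 were higher at 24 h (45.9% of all such genes), with a median change of -0.07 at 24 h against 0.76 at 6 h. The 3 that were lower at 6 h were all lower at 24 h, and 1 was called. Markers of other cells were called at 24 h: 4 of 13 of cardiomyocytes higher, and 2 of 18 of OP9 stroma higher and 1 lower. The 1 erythroid marker, Hbb-bs, was called higher, with 5.56, 1.14 and 1.78 over OP9-Dll4 and 0.035, 0.036 and 0.032 over OP9-GFP. The part of such RNA in the 24 h calls was not tested.

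The difference between the 2 times was itself called for 35 of all genes (0.252%), among them 11 of the genes named by rule. Ank1, Il33, Col18a1, Krt18, Ccnd2, Dsg2, Kif26b, Emilin2 and Mpp2 had a larger rise at 24 h. Col18a1 went from 13.0, 8.92 and 16.1 to 38.5, 32.3 and 43.0 at 24 h, and its effect grew by 0.87 ± 0.10 (adjusted p 0.00045). For Gm42418 and CT010467.1, whose log2 changes at 24 h were -0.14 and -0.50 and were not called, the difference was -1.01 and -2.36 (adjusted p 0.00238 and 0.0315). For the Notch targets the difference did not pass: Nrarp changed by 1.77 ± 0.12 at 24 h (difference 0.55 ± 0.17, adjusted p 0.210), Hey2 by 0.86 ± 0.08 (difference 0.42 ± 0.11, adjusted p 0.169) and Hes1 by 0.49 ± 0.06 (difference 0.03 ± 0.08, adjusted p 0.959). Notch1, not called at 6 h, was called at 24 h (0.54 ± 0.09, adjusted p 0.00086), but its difference between the times was not (adjusted p 0.164). MEEC were plated at another density for 24 h, so time and density cannot be told apart.

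**Figure D4:**
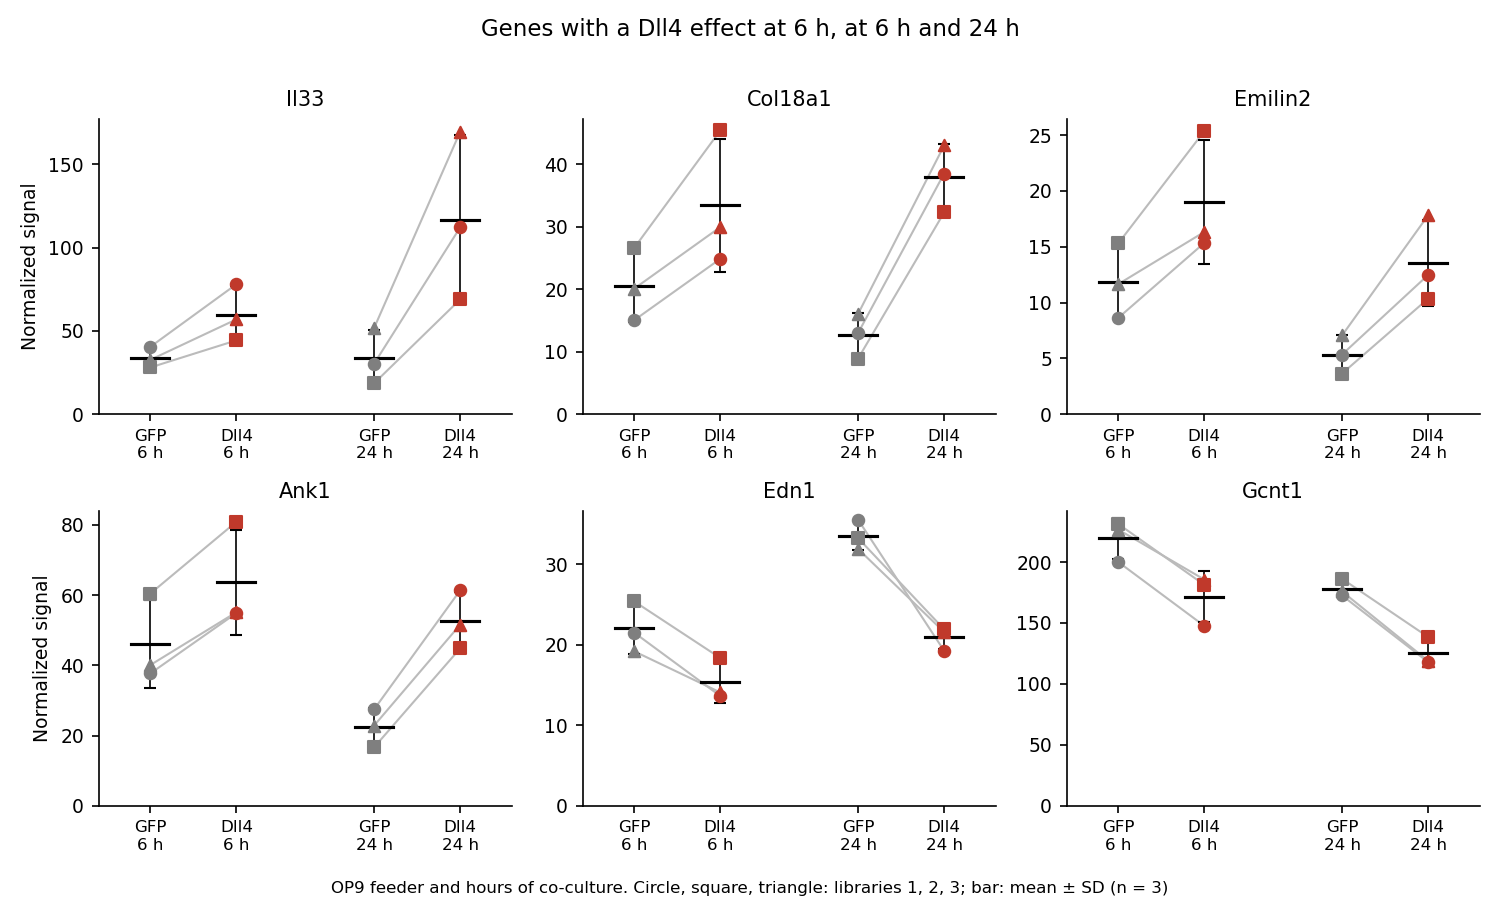
Normalized signal of 4 genes that rose and 2 that fell at 6 h, in each library over OP9-GFP (grey) and OP9-Dll4 (red) at 6 h and 24 h, with lines joining same-numbered libraries and bars giving the mean ± SD (n = 3). The lines of Il33, Col18a1, Emilin2 and Ank1 are steeper at 24 h, and Edn1 and Gcnt1 fall in every pair at both times.

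The 6 h genes were also looked up where MEEC had met Dll4 without feeder cells. Over wells coated with recombinant ligand for 38 h, 14 h of it without serum, rDLL4 with vehicle changed 868 of 13407 genes against DMSO alone (6.47%). Of the 110 higher genes 108 were listed there, 92 with a positive change and 67 called higher, against 49.8% and 4.05% of the 13183 genes listed in both experiments. Uqcrh, a subunit of the respiratory chain, was the 1 called lower and is named after its value was seen (-0.38, adjusted p 0.00546, limma). Of the lower genes 51 were listed, 40 with a negative change and 22 called lower, against 50.2% and 2.47% of those genes. Il33 rose from 20.6 ± 6.35 to 120.5 ± 15.3 (log2 change 2.54 ± 0.12), Tuft1 from 40.5 ± 2.15 to 114 ± 4.75 (1.47 ± 0.06) and Hey1 from 0.772 ± 0.04 to 5.89 ± 0.64 (1.95 ± 0.14, SD and n = 3 for each group). Heyl, not called over feeders, was called here (0.96 ± 0.16, adjusted p 0.00228). CT010467.1, Gm42418, Rn7sk and Gm26549 were not (log2 changes -0.43, 0.04, -0.02 and -0.01). Normalization was done separately for each experiment, so levels are compared only within one.

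Under block of gamma-secretase most of these genes had the opposite sign. MEEC had spent 24 h in 20 µM RO4929097 or in DMSO and then 6 h over OP9-GFP (n = 4 each), a comparison in which 427 of 12984 genes were called (3.29%). Of the 110 higher genes 104 were listed, 97 with a negative change under the inhibitor, 65 called lower and 0 called higher (limma). Of the genes listed in both experiments, 48.8% had a negative change and 2.06% were called lower. Of the 52 lower genes 51 were listed, 45 with a positive change and 16 called higher, and Gm10273 was the 1 called lower; over those genes 51.2% had a positive change and 1.21% were called higher. Hes1 had 43.5, 51.3, 41.7 and 44.5 in DMSO and 19.7, 22.8, 25.3 and 27.4 in RO4929097. The groups were far apart (log2 change -0.90 ± 0.09, adjusted p 0.000785). Il33 had 49.2, 29.5, 37.9 and 42.7 against 8.70, 8.55, 7.99 and 7.43 (log2 change -2.13 ± 0.11, adjusted p 5.67e-05). Nrarp, Hey2, Hey1 and Jag1 were called lower too, at -0.82, -0.64, -0.70 and -0.46. CT010467.1, Gm42418, Rn7sk and Lars2 also fell (log2 changes -2.13, -1.38, -1.50 and -1.01), although Gm42418 ranged from 1780 to 5118 among the DMSO libraries. Of the 39 genes called in every fit without a library, all 39 had the opposite sign under RO4929097 and 33 were called so, while 37 had the same sign at 24 h and 38 over rDLL4.

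**Figure D5:**
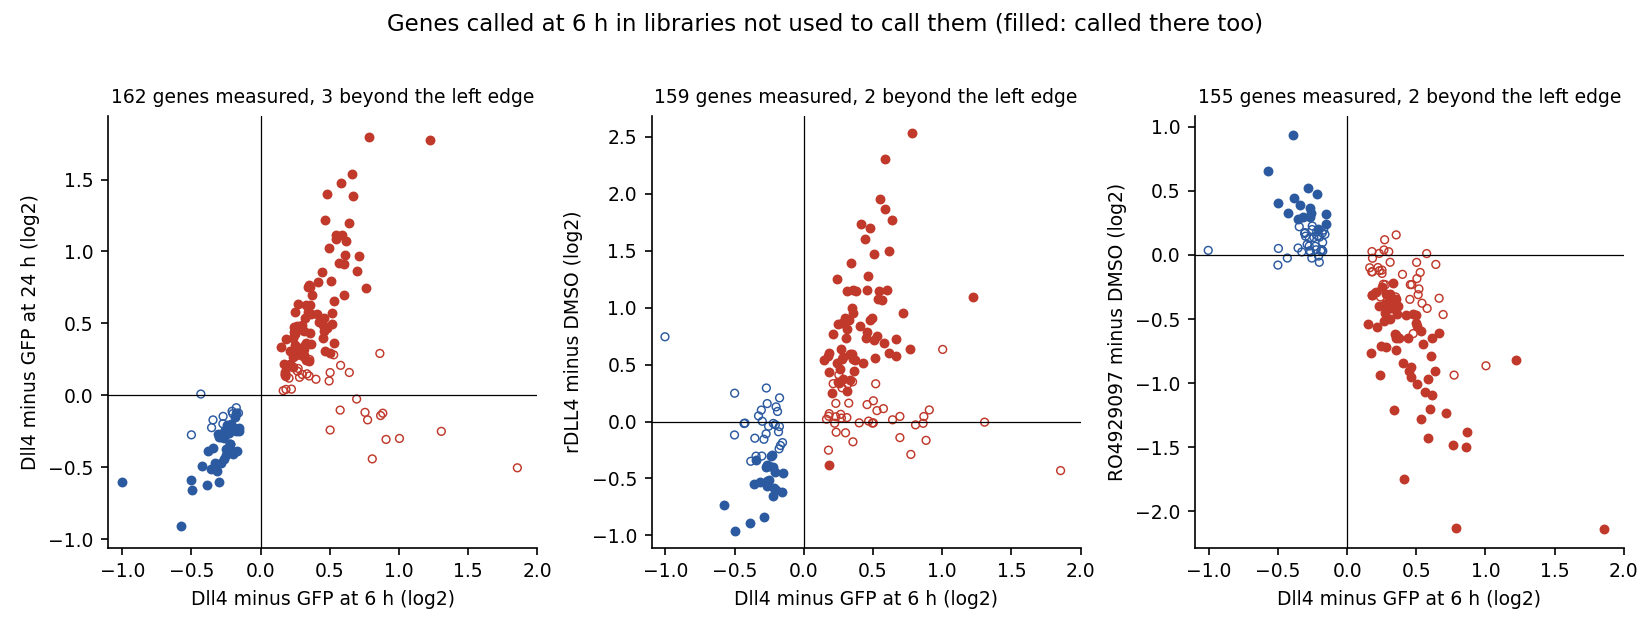
The 6 h log2 change of each called gene (OP9-Dll4 minus OP9-GFP) against its log2 change at 24 h, over rDLL4 and under RO4929097, in red for genes higher and blue for genes lower at 6 h; filled points were called there too, and 2 or 3 genes per panel lie beyond the left edge. Higher genes lie mostly above 0 in the panels of 24 h (98 of 110) and rDLL4 (92 of 108) and below 0 in that of RO4929097 (97 of 104). The 24 h libraries were in the same fit and entered the estimate of spread behind the 6 h calls.

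Dll4 and Jag1 feeders at 6 h share the OP9-GFP libraries, so their effects are set side by side only. Nrarp changed by 1.22 over OP9-Dll4 and 1.79 over OP9-Jag1, Hes1 by 0.45 and 0.59, Hey2 by 0.44 and 0.84, Hey1 by 0.55 and 0.96, Il33 by 0.79 and 1.197, and Edn1 by -0.50 and -0.79. CT010467.1 and Gm42418 changed by 1.86 and 0.87 over OP9-Dll4 and by 0.70 and 0.43 over OP9-Jag1. Tested directly, OP9-Dll4 against OP9-Jag1, no gene was called by limma, with 965 at an unadjusted p under 0.05, and 2, Tuft1 and Sfrp4, were called lower over OP9-Dll4 when only genes with a mean signal of at least 4 entered (adjusted p 0.0358 for each). Over all genes Tuft1 differed by -0.32 ± 0.05 and Sfrp4, which encodes a secreted Wnt antagonist and was picked after its values were seen, by -0.36 ± 0.06 (adjusted p 0.0601 for each). Nrarp, at -0.56 ± 0.12 (adjusted p 0.131), and Hey2, at -0.39 ± 0.08 (adjusted p 0.124), did not pass. A difference that does not pass does not show that the ligands act alike.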

How the data were processed

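RNA-seq values of the feeder co-cultures were used as the authors deposited them. Per the submitters' processing notes, the build was GRCm38 and the tools were limma, RSEM, cutadapt and FastQC, without versions. No source used here gives the strand or other settings of the counting. The deposited values are a normalized signal: in each library they step as whole reads plus 0.5 divided by a scaled library size, and 100% of values of the first experiment came out whole within 0.01 of a read. Normalization was done separately for the 3 experiments. Here log2(signal + 1) was fitted with limma 3.58.1 (R 4.3.3, trend) over the 18 feeder libraries of the first experiment, with group and library number within time as terms. p-values were adjusted over 13886 genes by the Benjamini-Hochberg method, and genes under 0.05 were called. The RO4929097 and recombinant ligand experiments were fitted alike with group and number.

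Labels number the libraries 1 to 3 in each group. Between the groups compared, all same-number correlations of deviations were over 0.1 (0.507, 0.683 and 0.270 between OP9-Dll4 and OP9-GFP at 6 h), so the numbers were taken to pair the libraries within a time. Between OP9-GFP at 6 h and at 24 h they were 0.100, 0.056 and 0.084. At 6 h some pairs of different number passed the limit of 0.1 too. OP9-Dll4 library 3 with OP9-GFP library 1 gave 0.295, and OP9-Dll4 library 1 with OP9-GFP library 3 gave 0.193. This check therefore cannot decide whether libraries 1 and 3 are paired by number, and the pairing remains an assumption. Data were simulated for the 6 h comparison over 13886 genes. The fit recovered 100% of 100 genes changed 2-fold and 100% of 100 changed 4-fold, with 12 false calls. Most of the called changes at 6 h were smaller than 2-fold: their median size was 0.34 on the log2 scale, and 8 of 162 exceeded 1. Recovery of changes that small was not tested. The genes, gene lists, block and comparisons were chosen with earlier results of these data known. Named genes are the 15 largest called rises and falls with a mean signal of at least 4, all listed Notch targets, receptors, ligands and modifiers, up to 6 called members of each other list, genes called with and without the block, up to 15 called at both times, and the 3 most expressed markers per cell type. Alternatives included other pseudocounts, filters and scalings, fewer libraries, and edgeR 4.0.16 and DESeq2 1.42.0 on recovered reads. Intervals and limits from read numbers cover counting error only. Figures were drawn with matplotlib 3.10.9 in Python 3.11.15.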

Additional observations from a re-analysis of the deposited data

Results flagged for a closer look

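The effect of Dll4 differed between 24 h and 6 h, by the interaction term in limma, for 11 of the named genes. It was larger at 24 h for Il33 (difference in log2 change 1.01), Dsg2 (0.89), Col18a1 (0.87), Ank1 (0.75), Emilin2 (0.56), Kif26b (0.38), Krt18 (0.36), Ccnd2 (0.32) and Mpp2 (0.27). It was more negative at 24 h for Gm42418 (-1.01) and CT010467.1 (-2.36), neither of which was called at 24 h.

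In the RO4929097 experiment, 12 of 144 groups of 4 libraries of the named genes (8.33%) held a library set apart from the other 3, where chance gives about 1 in 20. Among the DMSO libraries, Dusp6 had a signal of 192 in library 1 (others 229 to 235), and Gcnt1 had 214 in the same library (others 182 to 187). Library 2 had 15.9 for Fas (others 14.8) and 7.17 for Flt1 (others 3.89 to 4.27).

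Among the RO4929097 libraries, library 1 had 19.7 for Ank1 (others 22.3 to 22.7) and 5.21 for Col15a1 (others 0.533 to 1.301). Library 2 had 7.91 for Col18a1 (others 11.1 to 11.5). Library 3 had 18.9 for CT010467.1 (others 0.192 to 1.98), 766 for Col6a1 (others 619 to 640), 10.1 for Gm26619 (others 0.157 to 1.02) and 28.9 for Tgfb2 (others 24.5 to 25.0). Library 4 had 116 for Irs1 (others 111).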

How the results depend on the processing

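The 162 calls at 6 h rest on the replicate block: without it 1 gene was called, and with 1 block effect per number over both times 7. The count was 142 to 200 with fewer libraries in the fit (150 and 142), other pseudocounts (158 and 176), a filter on the mean (181), quantile scaling (200) or TMM (162), 321 with library weights, 139 by edgeR and 108 by DESeq2. Leaving out 1 library gave 64 to 144 (64 without OP9-Dll4 library 2, 65 without OP9-GFP library 3, 66 without OP9-Dll4 library 1, 87 without OP9-GFP library 2, 89 without OP9-Dll4 library 3). In fits chosen after seeing the data, leaving out number 1, 2 or 3 of all 6 h groups gave 85, 63 and 56. Without the block, 71 genes were called at 24 h (808 with it), 1 for the difference between times (35), 0 between Dll4 and Jag1 (0), 469 for rDLL4 (868) and 118 for RO4929097 (427). Leaving out 1 library gave 496 to 743, 13 to 58, 0 to 2, 475 to 1431 and 120 to 363 for these in turn, and the filter on the mean gave 2 between Dll4 and Jag1. The cause of these shifts was not tested. No named gene called at 6 h changed sign in the alternatives run, while the change of 14 named genes that were not called crossed 0. The kept signs are no test of the calls. All 162 called genes moved one way in all 3 numbered pairs. Several alternatives, such as the fit without the block, leave the fitted change itself as it was. Calls for the difference between times went from 21 higher and 14 lower to 19 and 37 without OP9-GFP library 1 of 6 h and to 22 and 36 without OP9-GFP library 2 of 24 h. Between Dll4 and Jag1, the filter gave 2 lower and leaving out OP9-Dll4 library 1 gave 2 higher. Without number 2 of all 6 h groups, 53 genes were higher, of which 49 were higher at 24 h and 48 over rDLL4. Genes near the limit of 3 reads cannot show a fall at this depth.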
